A study of Mus musculus with 4 samples.

Results

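The fatty acid oxidation genes described here are 9 genes of the mitochondrial and peroxisomal pathways that break fatty acids down: Cpt1a, Cpt2, Acadl, Acadm, Acadvl, Hadh, Ech1, Acaa1a and Pex11a. Every probe set that the platform annotation gives to exactly 1 of these genes was taken, and 8 of the 10649 probe sets with values belonged to them. These 8 cover 7 of the 9 genes, out of 7577 genes with values in all. Acadl (1 probe set) and Acadvl (2 probe sets) had no values and were not analysed here. RNA was measured in mouse peritoneal macrophages labelled PPARg WT and PPARg KO, 2 arrays each, all on a mixed 129/SV and C57BL/6 background. PPARg, encoded by Pparg, is a nuclear receptor that fatty acids and their derivatives can activate. The cells of both genotypes had been drawn into the peritoneal cavity by 2.5 ml of 3% thioglycollate, an irritant. They were lavaged 3 days after the injection and plated in 10% serum. The plates were washed after 5 h and then held for 24 h in 0.5% serum, with no ligand or stimulus named. The labels give neither the age of the mice, nor the deleted part of Pparg, nor the cells in which it was deleted. Separate mice or cultures behind the arrays are not named either, replicate 2 of both genotypes is marked dup, and p-values therefore measure no more than the array-to-array spread, part of which may be technical.

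Fatty acids are oxidised mainly in mitochondria. Long-chain acyl groups cross the mitochondrial membranes on carnitine, and then pass through a repeating cycle of dehydrogenation, hydration, a further dehydrogenation and cleavage that releases acetyl-CoA. Peroxisomes shorten very long chains by a parallel set of enzymes. The receptors of the PPAR family switch many of these genes on in liver, muscle and fat, PPARα most of all in liver. In macrophages, fatty acid oxidation is best known from the interleukin-4-activated state.

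A PPAR, paired with a retinoid X receptor, binds copies of the letters AGGTCA repeated in the same direction with 1 base between them. The 250 bases before the start of each of the 9 genes were read from RefSeq (GRCm38.p6), where all 9 had an entry, and both strands were searched. The repeat AGGTCANAGGTCA was found in 0 of the 9 windows and in 0.0335% of the 32851 RefSeq windows of that length. A looser form, AGGNCANAGGNCA, which includes every match of the first, was found in 0 of 9 and in 0.338% of all. A single AGGTCA, which lies within each strict repeat, occurred in 3 of the 9 windows (Cpt1a, Acadm and Acadvl) and in 14.0% of all. A match is a description of the letters and not a measured binding site, and distant sites lie outside these windows. The 3 windows below are shown because they belong to the members with the largest genotype differences, Cpt1a and Pex11a, and to Acadm, which has the single motif like Cpt1a and a difference near 0. Capitals mark AGGTCA on either strand, so that TGACCT is the motif on the opposite strand. Each window runs 5′ to 3′ in the direction of its gene.
Cpt1a (chr19:3323051-3323300, plus strand): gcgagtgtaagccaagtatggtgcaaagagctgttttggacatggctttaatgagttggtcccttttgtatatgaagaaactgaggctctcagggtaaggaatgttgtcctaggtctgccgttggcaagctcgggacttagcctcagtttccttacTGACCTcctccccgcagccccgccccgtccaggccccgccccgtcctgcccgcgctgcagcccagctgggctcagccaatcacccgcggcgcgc
Pex11a (chr7:79743132-79743381, minus strand): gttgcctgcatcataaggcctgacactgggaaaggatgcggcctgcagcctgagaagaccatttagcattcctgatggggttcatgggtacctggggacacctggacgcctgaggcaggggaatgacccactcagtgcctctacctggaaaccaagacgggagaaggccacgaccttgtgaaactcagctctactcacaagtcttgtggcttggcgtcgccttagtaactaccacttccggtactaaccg
Acadm (chr3:153944644-153944893, minus strand): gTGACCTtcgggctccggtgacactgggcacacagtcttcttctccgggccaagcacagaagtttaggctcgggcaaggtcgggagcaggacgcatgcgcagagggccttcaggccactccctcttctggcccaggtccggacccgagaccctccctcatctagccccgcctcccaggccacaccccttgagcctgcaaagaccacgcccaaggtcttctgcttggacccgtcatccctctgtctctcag
The Cpt1a motif began 94 bases before the start and the Acadm motif 249 bases before it.

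Values are signals in intensity units as deposited. A log2 difference is the mean of the KO arrays minus the mean of the WT arrays on the log2(signal + 16) scale, and folds are on that scale too, so they understate changes of dim probe sets. Adjusted p-values are from limma with Benjamini-Hochberg adjustment over all 6389 probe sets bright enough to be tested, two-sided, with a threshold of 0.05. Intervals are 95% confidence intervals from the spread that limma pools over probe sets of like signal. The median signal of an array lay between 137 and 142, and the number of arrays limits the precision. An exact permutation test of 2 arrays against 2 could not give a p below 0.333, so none is used. The Pparg probe set, the check of the labels, read 61.1 and 73.1 in WT and 43.0 and 40.6 in KO. Both KO signals lay below both WT signals, but all 4 lay below the median antisense control of their array and the probe set may lie outside the deleted part. Its log2 difference was -0.52 (SE 0.11, adjusted p = 0.00012 by limma without a signal filter, where 3.11% of 10649 probe sets passed). Without WT replicate 2 it was -0.42 with adjusted p = 0.14. Of 10 macrophage markers, 10 exceeded the median antisense control on all 4 arrays.

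Measured differences of the fatty acid oxidation genes between the genotypes were at most 1.24-fold. Cpt1a, Pex11a and Acaa1a had lower signals in KO, by 1.23-fold, 1.24-fold and 1.18-fold, Hadh had a slightly higher one, and Cpt2, Acadm and Ech1 lay within 0.04 of 0 on the log2 scale. Of the 7 tested, 4 had a lower mean in KO, as did 57.9% of all tested probe sets. By limma, 0 of the 7 member probe sets tested passed the adjusted threshold, which 3.55% of all 6389 tested probe sets did. At an unadjusted p under 0.05 there were 2 (Cpt1a and Pex11a), beside 9.47% of all tested probe sets. The KO arrays lay wholly below the WT arrays at 3 of 7 member probe sets (21.1% of all) and wholly above at 1 (11.3% of all), so that 4 of 7 did not overlap, against 32.4% of all. The log2 difference exceeded the gap between replicates within both genotypes at 2 of 7 (Cpt1a and Pex11a), beside 22.1% of all tested probe sets. The median log2 difference of the 7 was -0.02, the same to 2 decimals as that of all tested probe sets (-0.02). It turned positive after quantile normalization (0.0187), after median centring (0.0076) and without KO replicate 1 (0.0517). The eighth probe set, the dimmer one of Cpt2, was too dim to be among the 7. Without a filter it came in, and the median over 8 was 0.0066. With the filter at the 60th percentile Pex11a fell out, and the median over 6 was 0.0066. Neither change of filter altered the difference of any member probe set, only which of them were counted.

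**Figure D1:**
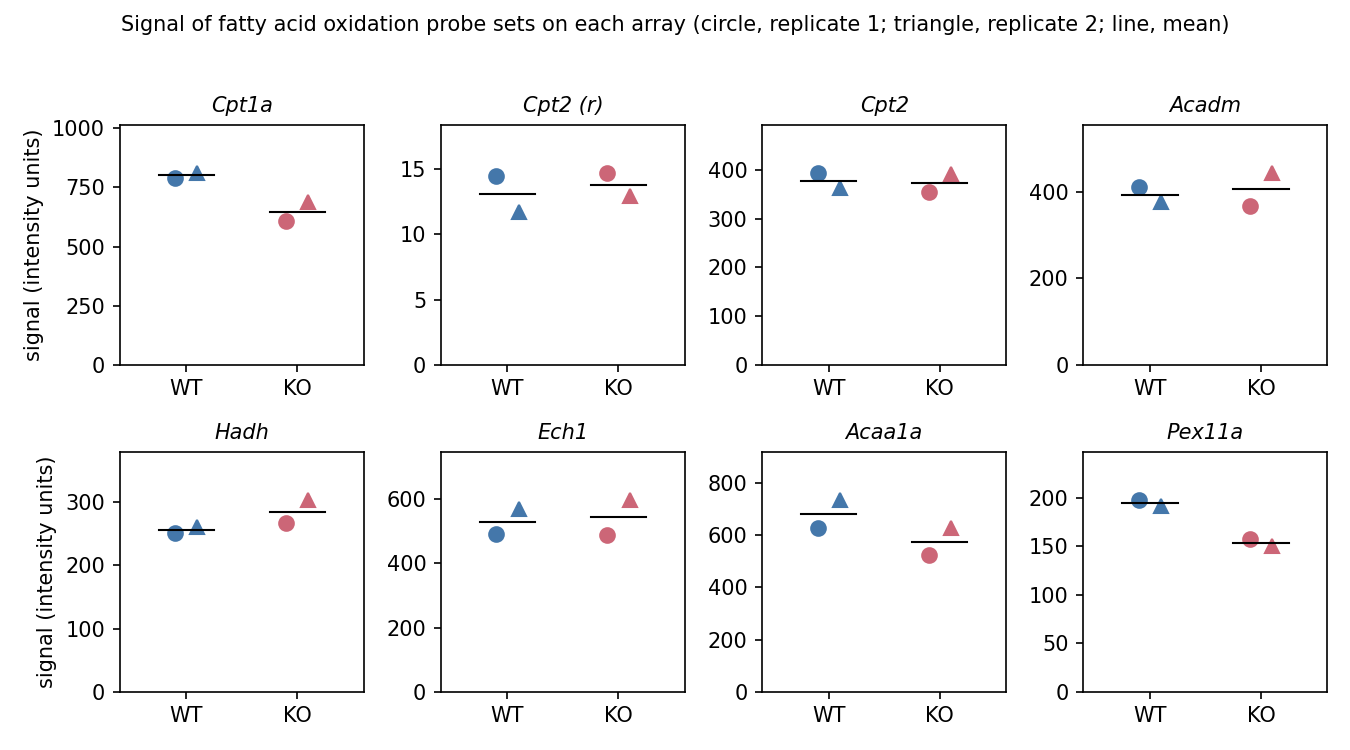
Signal in intensity units (vertical axes from 0, a separate scale in each panel) of the 8 fatty acid oxidation probe sets on each of the 4 arrays, with WT in blue and KO in red; circles are replicate 1, triangles replicate 2 and lines the mean of 2. In Cpt1a, Acaa1a and Pex11a both KO points lie below both WT points, in Hadh above, and in the other 4 panels the genotypes overlap; the panel marked (r) is the dim Cpt2 probe set.

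Cpt1a makes carnitine palmitoyltransferase 1A, which loads long-chain acyl groups onto carnitine at the outer mitochondrial membrane and sets the rate of their entry. WT cells gave signals of 790 and 811, and KO cells 606.5 and 689. Both KO arrays were below both WT arrays, and the gap between genotypes was wider than the gap within either. The means were 801 ± 15.0 in WT and 648 ± 58.3 in KO (SD, n = 2). The log2 difference was -0.30 (SE 0.15, interval -0.60 to -0.01), with an unadjusted p of 0.046 and an adjusted p of 0.50 by limma. It did not pass the threshold, and the interval reaches from almost no difference to a 1.51-fold lower level. KO replicate 2 exceeded KO replicate 1 by 0.18 on the log2 scale, close to the median of 0.20 for all tested probe sets in the same decile of signal.

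Cpt2, which makes the enzyme of the inner membrane that hands the acyl group back to coenzyme A, was measured by 2 probe sets. The brighter one read 393 and 362 in WT and 354 and 392 in KO. The arrays of the genotypes interleaved. The log2 difference was -0.02 (SE 0.13, adjusted p = 0.9997 by limma), and its interval runs from 1.21-fold lower to 1.18-fold higher in KO. Its sign turned after quantile normalization (0.02) and after median centring (0.01), so no direction is given. The other probe set read 14.5 and 11.7 in WT and 14.7 and 12.9 in KO. It was below the median antisense control on all 4 arrays and at percentile 0.50 among probe sets with values, so it is not well above background and says nothing on the level of Cpt2. Cpt1a and Cpt2 act in sequence, and whether their differences themselves differ was not tested.

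The acyl-CoA dehydrogenases take the first step of each cycle and differ in the chain length they prefer. Acadm, the medium-chain enzyme, was the member of this trio with values. It read 411 and 377 in WT and 368 and 444 in KO. The KO arrays spanned both WT arrays, being the lowest and the highest of the 4. The log2 difference was 0.04 (SE 0.14, interval -0.23 to 0.30, adjusted p = 0.9997 by limma), and the gap between the KO arrays alone was 0.26. The long-chain and very-long-chain enzymes, Acadl and Acadvl, were not analysed here.

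Hadh makes the short-chain 3-hydroxyacyl-CoA dehydrogenase of the mitochondrial matrix, which takes the second dehydrogenation of the cycle. Its signal was 250 and 260 in WT and 266.5 and 303 in KO. Both KO arrays were above both WT arrays, the lower of them narrowly. The means were 255 ± 6.93 and 285 ± 25.7 (SD, n = 2), a log2 difference of 0.15 (SE 0.12, interval -0.09 to 0.38, adjusted p = 0.97 by limma). This difference was smaller than the 0.17 by which KO replicate 2 exceeded KO replicate 1, and it did not pass.

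Ech1 makes an isomerase that shifts the double bonds of unsaturated fatty acids so that they can enter the cycle, and it is found in mitochondria and peroxisomes. Its signal was 490 and 568.5 in WT and 489 and 597 in KO. In each genotype replicate 1 was the lower and replicate 2 the higher, and the spread lay between replicates rather than genotypes. The log2 difference was 0.03 (SE 0.14, interval -0.25 to 0.31, adjusted p = 0.9997 by limma), beside gaps between replicates of 0.21 in WT and 0.28 in KO.

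Acaa1a and Pex11a, the members whose products are best known from peroxisomes, had lower signals in KO, as did the mitochondrial member Cpt1a. Ech1, found in both organelles, did not. Of the 10 tested genes in the wider list of peroxisomal oxidation, 6 had higher means in KO and 4 lower ones (57.7% of all tested genes were lower). The KO arrays lay wholly below the WT arrays at 3 of the 10 and wholly above at 0, beside 20.9% and 11.3% of all tested genes. A difference between the organelles was not tested. Acaa1a makes the peroxisomal 3-ketoacyl-CoA thiolase, which takes the cleavage step. It read 627 and 734 in WT and 525 and 626 in KO. The genotypes met almost exactly: the higher KO array was at 626.2 and the lower WT array at 626.8. The means were 681 ± 76.0 and 575 ± 71.8 (SD, n = 2), a log2 difference of -0.24 (SE 0.15, interval -0.53 to 0.05, adjusted p = 0.78 by limma), and the gaps between replicates were 0.22 in WT and 0.25 in KO. Acaa1a has a closely similar neighbour in the mouse, Acaa1b, and how far this probe set separates them was not tested. The Acaa1b probe set, named after its values were seen, read 342 and 362 in WT and 308 and 311 in KO (log2 difference -0.18, SE 0.13, adjusted p = 0.91 by limma).

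Pex11a makes a protein of the peroxisomal membrane that elongates peroxisomes before they divide, and it is a textbook gene of the PPAR response. Its signal was 198 and 191 in WT and 158 and 150 in KO. The 2 arrays of each genotype lay close together, and both KO arrays were clearly below both WT arrays. The means were 195 ± 4.67 and 154 ± 5.23 (SD, n = 2), a log2 difference of -0.31 (SE 0.11, interval -0.53 to -0.09). The unadjusted p was 0.0052 and the adjusted p 0.11 by limma, the smallest of the members, and it did not pass. The replicate gaps were -0.05 in WT and -0.06 in KO.

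**Figure D2:**
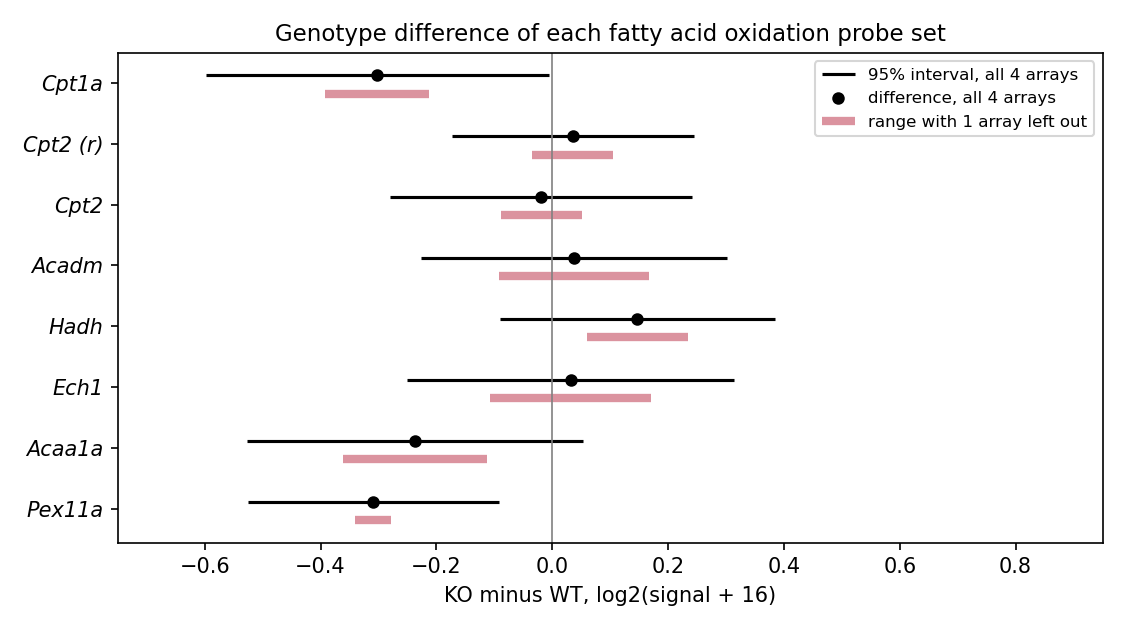
Log2 difference (KO minus WT, horizontal axis) of each fatty acid oxidation probe set, with its 95% interval from limma in black and, in red, the range of the difference with 1 array removed at a time. Pex11a ranged from -0.34 to -0.28 and Cpt1a from -0.39 to -0.21, and both stayed below 0 in every case, as did Acaa1a; Cpt2, Acadm and Ech1 fell on both sides of 0.

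The size of several differences depended on single arrays. With KO replicate 1 left out, Acaa1a was at -0.11 and Cpt1a at -0.21, and with KO replicate 2 left out they were at -0.36 and -0.39. Hadh ranged from 0.06 without KO replicate 2 to 0.23 without KO replicate 1. Pex11a moved least among the members, between -0.34 and -0.28. With 1 array left out, 1 genotype rests on a single array, so only sizes are given here.

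A shift between the KO arrays ran through the brighter members and through bright probe sets as a whole. KO replicate 2 exceeded KO replicate 1 at 6 of 7 tested member probe sets, by a median of 0.18, and at 4538 of all 6389, by a median of 0.11. The shift grew with brightness over all tested probe sets, from -0.01 in the dimmest decile to 0.21 in the brightest. The WT arrays differed less, with a median of 0.04 over the members and with decile medians from -0.03 to 0.07. Pex11a, the dimmest tested member, was at -0.06, beside a median of 0.04 in its decile. The part of this shift in the differences between genotypes was not tested. Differences after quantile normalization, which aligns the arrays at every level, were -0.26 for Cpt1a, -0.20 for Acaa1a, -0.28 for Pex11a and 0.18 for Hadh, with adjusted p from 0.061 to 0.39 by limma.

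**Figure D3:**
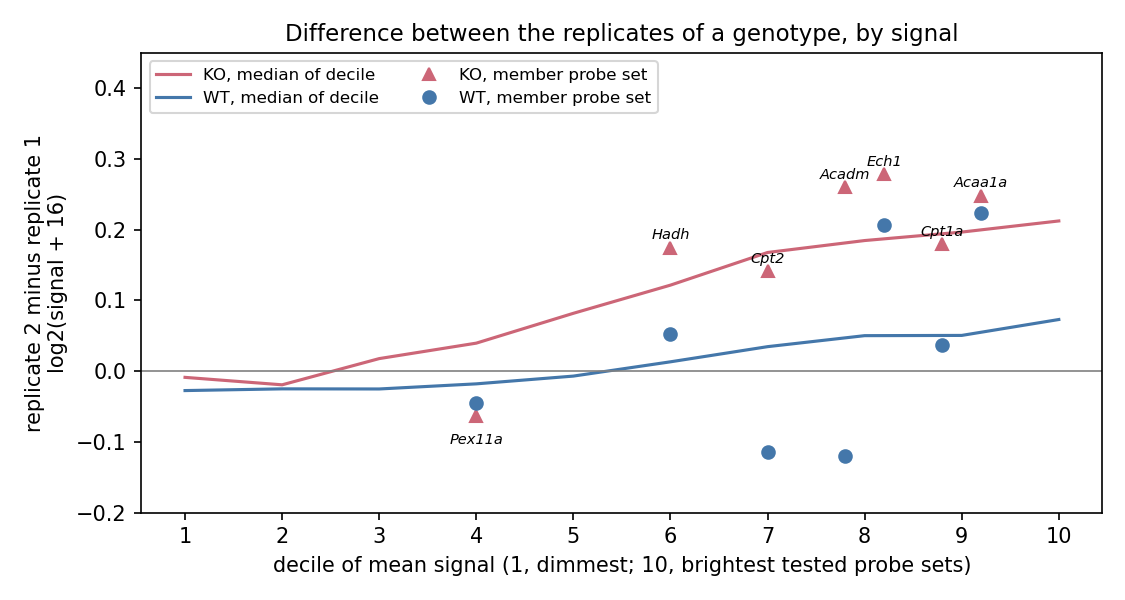
Replicate 2 minus replicate 1 on the log2(signal + 16) scale (vertical axis) by decile of mean signal among tested probe sets (horizontal axis); lines are medians over about 639 probe sets a decile, and points are the 7 tested members, with KO in red and WT in blue. The KO line climbs from -0.01 to 0.21, the brighter members lie near or above it, and Pex11a lies at -0.06.

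The rest of the pathway was read from lists of other genes. Of the 149 genes listed, 101 had values and 69 were bright enough to be tested as genes, each by its brightest probe set. Of these 69, 1 rose (Fabp4), 1 fell (Med1) and 67 did not pass, beside 1.06% of all 5002 tested genes higher and 2.66% lower (3.72% in either direction). The median log2 difference of the 69 was -0.03, beside -0.02 over all tested genes. The KO and WT arrays did not overlap at 22 of the 69 genes, 16 with KO below and 6 with KO above, beside 32.2% of all tested genes (20.9% below and 11.3% above). An unadjusted p under 0.05 was reached by 5 of the 69, and by 9.46% of all tested genes.

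Enzymes of fatty acid activation and the carnitine shuttle gave 0 of 7 tested genes past the threshold by limma (0 at an unadjusted p under 0.05), with a median log2 difference of 0.06. Dbi, which makes the acyl-CoA binding protein, read 988 and 1041 in WT and 1088 and 1339 in KO. Its KO arrays were above both WT arrays, and the log2 difference of 0.25 (SE 0.16, adjusted p = 0.80) did not pass, though it did after quantile normalization (0.29, adjusted p = 0.018). Acsl5, a long-chain acyl-CoA synthetase, read 539 and 513 in WT and 415 and 494 in KO, with adjusted p = 0.86 by limma.

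The other enzymes of the mitochondrial cycle and of electron transfer gave 0 of 13 by limma (0 at an unadjusted p under 0.05), with a median of 0.02. Hadhb, the thiolase subunit of the trifunctional protein, read 562 and 589 in WT and 427 and 524 in KO. Both KO arrays were lower, and its log2 difference of -0.27 (SE 0.14, adjusted p = 0.58) did not pass. Acot13, a thioesterase that frees fatty acids from coenzyme A, read 257 and 268 in WT and 271 and 317 in KO, with adjusted p = 0.96 by limma.

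Peroxisomal enzymes and transporters gave 0 of 10 by limma, 1 of them at an unadjusted p under 0.05, with a median of 0.03. That gene was Nudt19, which makes a hydrolase of coenzyme A, at 189 and 158 in WT and 139 and 141 in KO. Its KO arrays were both lower, with a log2 difference of -0.28 (SE 0.11, adjusted p = 0.21). Abcd3, a transporter of the peroxisomal membrane, read 310 and 331 in WT and 325 and 409 in KO, where the genotypes overlap (adjusted p = 0.91 by limma). Peroxisome assembly genes gave 0 of 5 by limma (0 at an unadjusted p under 0.05), with a median of -0.05. Pex5, the import receptor for matrix enzymes, read 152 and 168 in WT and 133 and 149 in KO, and Pex6, an ATPase that recycles it, read 177 and 187.5 in WT and 167 and 177 in KO.

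Among receptors, coactivators and energy sensors, 28 genes were listed, 19 had values and 6 were tested. All 6 had lower means in KO (57.7% of all tested genes did), with a median of -0.06 and 1 past the threshold. The differences ran from -0.39 to -0.006, which is almost 0. Med1, the Mediator subunit through which PPARs and other nuclear receptors contact the transcription machinery, read 175 and 143 in WT and 127 and 107 in KO. The KO replicate 2 signal (107.1) was barely above the median antisense control of that array (106.65). Both KO arrays were lower, and Med1 fell by 0.39 on the log2 scale (SE 0.11, adjusted p = 0.013 by limma). It missed the threshold without WT replicate 1 (-0.26, adjusted p = 0.9997), WT replicate 2 (-0.53, adjusted p = 0.052) or KO replicate 2 (-0.28, adjusted p = 0.22), after quantile normalization (adjusted p = 0.0504), and on its own spread (adjusted p = 0.92). The fit that takes each gene on its own spread called 0 probe sets in either direction, so the miss of Med1 there says nothing particular to it. Esrra, an orphan receptor that drives mitochondrial genes, read 419.5 and 453 in WT and 399 and 414 in KO (adjusted p = 0.9997 by limma).

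Other genes known to respond to PPARs gave 1 of 9 past the threshold by limma, beside 3.72% of all tested genes. An unadjusted p under 0.05 was reached by 2 of the 9, and by 9.46% of all. Lower means in KO were found at 6 of the 9 (57.7% of all), and the median was -0.13. The arrays did not overlap at 6 of the 9, 4 with KO below and 2 with KO above, beside 32.2% of all (20.9% below and 11.3% above). Fabp4, a fatty acid binding protein, read 133 and 111 in WT and 146.5 and 172.5 in KO. The WT replicate 2 signal lay below the median antisense control of that array (116), so Fabp4 was near background. Both KO arrays were higher, and Fabp4 rose by 0.35 on the log2 scale (SE 0.11, adjusted p = 0.042 by limma). It missed the threshold without WT replicate 1 (0.46, adjusted p = 0.14), WT replicate 2 (0.24, adjusted p = 0.9999) or KO replicate 2 (0.24, adjusted p = 0.40), without the signal filter (0.069), without the trend (0.058), with robust moderation (0.0504) and on its own spread (0.92). The fit on its own spread called 0 probe sets in all, so that miss is not particular to Fabp4. Nr1h3, which makes the oxysterol receptor LXRα, read 286 and 324 in WT and 222 and 243 in KO. Its log2 difference of -0.37 (SE 0.12, adjusted p = 0.061) did not pass, though it did in several other settings, among them quantile normalization (adjusted p = 0.039), the fit without the trend (0.038) and that without KO replicate 2 (0.013).

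The citrate cycle, which burns the acetyl-CoA that fatty acid oxidation yields, gave 0 of 20 by limma, 1 of them at an unadjusted p under 0.05, with a median of -0.03. That gene was Suclg2, a subunit of succinyl-CoA ligase, at 158 and 139 in WT and 178 and 181 in KO (log2 difference 0.25, SE 0.11, adjusted p = 0.31). Pdhb, a subunit of the pyruvate dehydrogenase complex, read 324 and 287 in WT and 323 and 389 in KO, where the genotypes overlap.

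**Figure D4:**
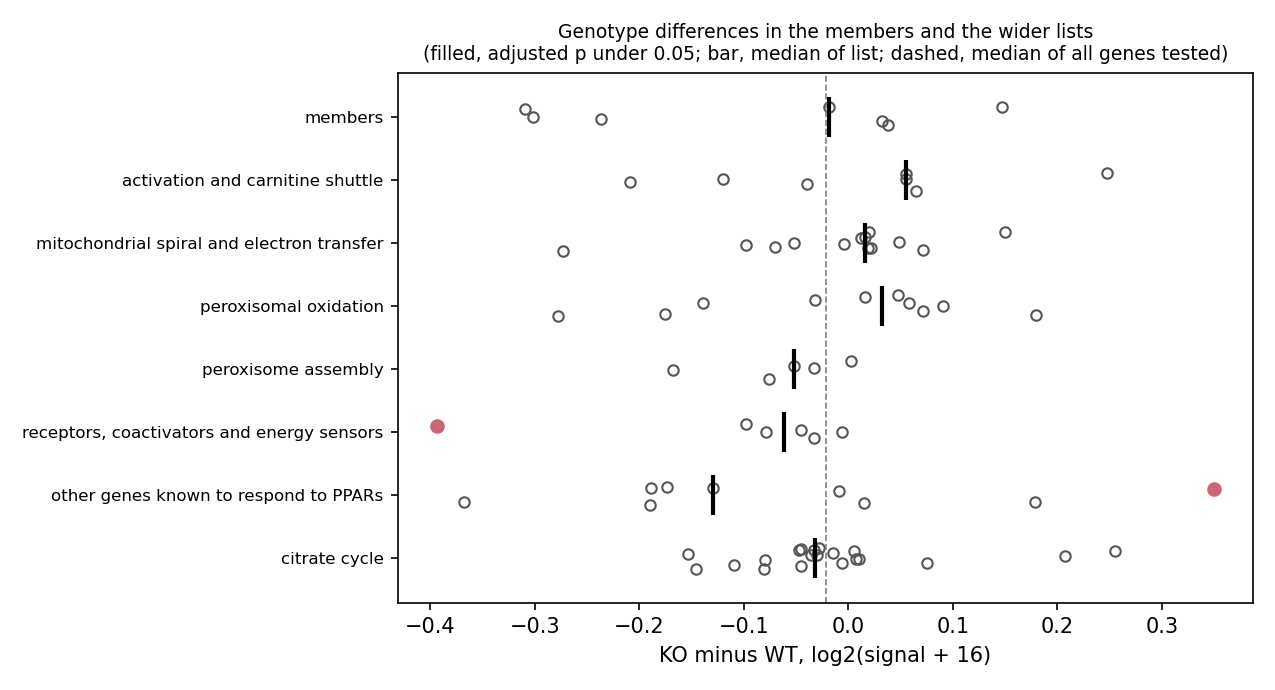
Log2 difference (KO minus WT, horizontal axis) of the 7 tested member probe sets and of the tested genes of 7 wider lists (rows); each circle is a probe set or gene, filled where its adjusted p is under 0.05, with a bar at the median of the row and a dashed line at the median of all tested genes (-0.02). Filled points are Med1 at -0.39 and Fabp4 at 0.35, and all other points, the members included, are open.

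Cells other than macrophages also carry these transcripts, and fewer cells of a type and less RNA per cell cannot be told apart in bulk RNA. Adipocytes are rich in PPARg and its targets, and 4 of 8 adipocyte markers had values. Their summed signal was 1315 to 1333 in WT and 1167 to 1218 in KO. By limma 0 of the 4 were called (1 at an unadjusted p under 0.05). The brightest of them, Pnpla2, read 808 and 821.5 in WT and 684 and 769 in KO (adjusted p = 0.9997 by limma). Adipoq, which defines the type, read 39.5 and 35.0 in WT and 47.7 and 36.7 in KO. Its signal lay below the median antisense control of every array. The other 3 exceeded that control on all 4 arrays. Of the 4 adipocyte markers, 3 had lower means in KO, and Adipoq a higher one. Lipe, the 1 at an unadjusted p under 0.05, read 193 and 203.5 in WT and 156 and 163 in KO. Its log2 difference was -0.29 (SE 0.11, adjusted p = 0.18 by limma), and both KO arrays were lower. Lep read 274 and 273 in WT and 279 and 250 in KO, where the genotypes overlap. The sum of 9 fibroblast and mesothelial markers with values of 10 listed was 1985 to 2011 in WT and 2468 to 2808 in KO, and 1 of them rose: Dcn, a matrix proteoglycan, at 616 and 561 in WT and 945 and 1060 in KO (log2 difference 0.75, adjusted p = 6.3e-05 by limma). Of these 9 markers, 8 had higher means in KO and 1 a lower one, and 5 exceeded the median antisense control on all 4 arrays. The sum of 7 neutrophil markers of 8 was 1148 to 1209 in WT and 981 to 1006 in KO, and 1 of them fell. That gene, S100a8, carried nearly all of the drop in the sum: it read 517 and 542 in WT and 331 and 370 in KO (log2 difference -0.58, adjusted p = 0.0015 by limma), while the median log2 difference of the 7 was -0.03. Of the 7 neutrophil markers, 3 exceeded the median antisense control on all 4 arrays. Sums of the dendritic cell markers (4 of 5, at 1294 to 1299 in WT and 1138 to 1272 in KO) did not overlap either. Nor did those of the B cell markers (4 of 5, at 529 to 554 in WT and 556 to 588 in KO). The brightest dendritic cell marker, Itgax, read 971 and 986 in WT and 835 and 980 in KO. Its arrays overlapped (adjusted p = 0.9997 by limma). Sums of the macrophage (10 of 10; 27725 to 28165 in WT, 27186 to 30998 in KO), T and NK cell (6 of 8; 575.5 to 600 in WT, 551 to 608 in KO), eosinophil (3 of 6; 226 to 239 in WT, 215 to 229 in KO) and mast cell markers (4 of 5; 464 to 479.5 in WT, 478.5 to 534 in KO) overlapped. Of the 10 macrophage markers, 1 fell: Mertk, a receptor for the uptake of dying cells, read 226 and 233 in WT and 135 and 150.5 in KO (log2 difference -0.63, adjusted p = 1.4e-06 by limma). Dcn, S100a8, Mertk, Pnpla2, Lipe, Lep and Itgax were named after their values were seen. Beside these marker counts, 3.55% of all 6389 tested probe sets passed (3.11% of 10649 without the filter). At 32.4% of the tested probe sets the arrays of the genotypes did not overlap. No such share was computed for sums of several genes. In none of the 9 lists was a marker at 0 on all arrays. The part of other cells in the values of Cpt1a, Pex11a and Acaa1a was not tested.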

How the data were processed

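The deposited table holds 1 linear intensity per probe set and array; the authors' probe summary, background step and scaling are not given in the sources used. Of 12488 rows, 1780 held no values and 59 were controls, leaving 10649 probe sets. The platform annotation gave 1 gene to 9389, several to 341 and none to 919; of the 9389, 9377 matched RefSeq (GRCm38.p6) by gene identifier. Array medians differed by less than 0.1 on the log2(intensity + 16) scale, so values were used as deposited. The dimmest 40% by mean (below a signal of about 111) were left out, and 6389 were tested, or 5002 genes by their brightest probe set.

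KO was compared with WT in limma 3.58.1 (R 4.3.3), with lmFit and eBayes with a trend. With infinite estimated prior degrees of freedom, the spread came wholly from the trend (12778 degrees of freedom). Genes with more than the usual spread at their signal pass too easily, and genes with less are held back. Probe sets below the filter were read from the fit without it. The code was tested on simulated data. The members, the gene lists and the marker lists were chosen with earlier results of these data known. Named are all members, Pparg and, in the wider lists, the genes past the threshold and the 2 of smallest p in each list. Acaa1b and several cell type markers were named after their values were seen. Alternatives were quantile normalization, median centring, other filters and pseudocounts, other moderation, an adjusted p of 0.1, the replicate number as a block, and each array left out; with 1 array left out, its partner is taken to vary as the other genotype's pair does. Figures were drawn with matplotlib 3.10.9.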

Additional observations from a re-analysis of the deposited data

How the results depend on the processing

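Without moderation limma called 0 probe sets higher and 0 lower, against 65 and 162. Quantile normalization called 170 and 249, and the replicate block 142 and 338; with 1 array left out the counts ran from 6 to 127 and from 48 to 285. Of the fatty acid oxidation probe sets, 2 were called in the replicate block fit, both lower: Cpt1a (adjusted p = 0.041) and Pex11a (adjusted p = 0.012). Replicate 2 minus replicate 1 correlated at 0.42 between KO and WT over 6389 probe sets, a hint from the data only, since the labels tie no WT array to a KO array and there are 2 pairs. In the wider lists, genes called higher were 2 after quantile normalization (Dbi and Fabp4) and 0 without a filter, with the 60th percentile, without the trend, with robust moderation and without moderation, and from 0 to 1 with 1 array left out. Genes called lower were 2 without a filter (Med1 and Ehhadh, the latter at signals from 14.3 to 25.6, below the median antisense control), 2 without the trend and 2 at an adjusted p of 0.1 (Med1 and Nr1h3), 3 with the block (Med1, Nr1h3 at adjusted p = 0.0017 and Nudt19), 0 with the 60th percentile and 0 without moderation, and from 0 to 1 with 1 array left out. Pparg was at -0.52 without moderation (adjusted p = 0.74) and from -0.62 to -0.42 with 1 array left out. Cpt2 turned to 0.0187 after quantile normalization and 0.0076 after median centring. With 1 array left out, it ran from -0.0894 to 0.0517, its dim probe set from -0.0342 to 0.1048, Acadm from -0.0924 to 0.1678 and Ech1 from -0.1073 to 0.1713. Apart from these turns and the 2 calls of the replicate block, the members kept their direction and missed the threshold in every setting run. Signals near the antisense controls, as for Pparg, limit what can be measured.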
